A study of Mus musculus with 4 samples.

Results

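Amino acid transporters were examined in whole mouse islets kept at low or high glucose. The 10 genes chosen by name were *Slc3a2*, *Slc7a5*, *Slc7a11*, *Slc7a1*, *Slc7a2*, *Slc7a8*, *Slc1a4*, *Slc1a5*, *Slc38a1* and *Slc38a2*, among 24012 gene symbols in the deposited table. All 10 were listed, and where a gene had several entries the one with the highest mean stood for it. Islets of adult wild type male C57bl6 mice, 3 months of age, were pooled, cultured overnight at 11 mM glucose and starved for 2 h at 2.8 mM glucose. They were then held at 2.8 mM glucose (2 libraries) or 16.8 mM glucose (2 libraries). The series description and the study's methods have both arms at 12 h. The label of each 2.8 mM library has 2 h and that of each 16.8 mM library has 12 h, so the difference between the arms could include a difference in time. The islets came from a common pool, and p-values measure the spread between these libraries, which may be technical. Each value is an average over all cell types of the islet, in which fewer cells of a type and less RNA per cell cannot be told apart.

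Cells take up amino acids through families of membrane carriers with overlapping substrates. The product of *Slc3a2* (CD98) is a heavy chain that brings light chains of the SLC7 family to the plasma membrane, among them LAT1 (*Slc7a5*) and LAT2 (*Slc7a8*), which exchange large neutral amino acids, and xCT (*Slc7a11*), which imports cystine in exchange for glutamate. CAT1 (*Slc7a1*) and CAT2 (*Slc7a2*) carry arginine and lysine without a heavy chain, ASCT1 (*Slc1a4*) and ASCT2 (*Slc1a5*) exchange alanine, serine and other small neutral amino acids, and SNAT1 (*Slc38a1*) and SNAT2 (*Slc38a2*) take up glutamine and alanine with sodium. In islets, amino acids such as arginine and leucine stimulate insulin secretion, and many of these carriers are known targets of ATF4, the transcription factor of the integrated stress response and of amino acid shortage.

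The table held RPKM values (read counts scaled by length and sequencing depth), and the length behind them was the genomic span, introns included. Taken over the span, between 84.8% and 86.5% of the values of low genes in a library came to within 0.1 of a whole number of reads, against at most 39.6% over the exons. The depth recovered in this way ranged from 50475000 to 60175000 reads over the 4 libraries. The test was limma on log2(RPKM + 0.5), for the 7867 transcripts whose mean reached 1 RPKM. The median log2 fold change of all these transcripts was -0.11. Of the marker lists for islet and other pancreatic cells, 7 of 10 beta cell markers rose and 3 did not pass. Their log2 fold changes ran from -0.25 to 2.80, so neither these counts nor the sum below gives the number of beta cells. By the voom fit described below, which called 28.8% of all genes lower and 13.2% higher, 9 of the 10 rose and 1 fell. The summed level of the 10 went from between 20601 and 22952 RPKM at 2.8 mM to between 41169 and 43916 RPKM at 16.8 mM. *Ins2* alone had 18136 and 15943 RPKM at 2.8 mM and 30018 and 27396 RPKM at 16.8 mM. None of 5 tested alpha cell markers and none of 9 tested acinar cell markers passed the test in either direction (limma, Benjamini-Hochberg adjustment). The acinar list summed to 105 and 300 RPKM at 2.8 mM and to 256 and 528 RPKM at 16.8 mM, and 10 of its 12 genes were higher in the voom fit described below. The alpha list summed to 2218 and 1698 RPKM and to 2173 and 1539 RPKM, and in the voom fit 1 of its 7 genes was higher and 1 lower. The part of cell composition in the values below was not tested.

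**Figure D1:**
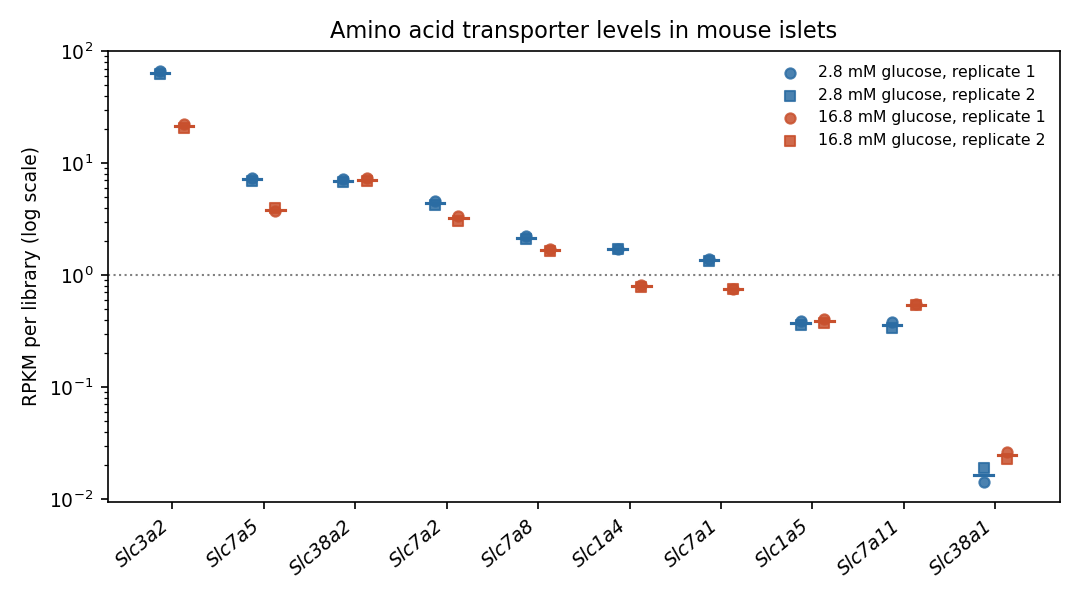
Level of each transporter in the 4 libraries, in RPKM over the genomic span on a log axis, with circles and squares for replicates 1 and 2 and short lines for the group means. The dotted line is the minimum of 1 RPKM asked of a gene's mean. *Slc3a2* stands above all others in every library, and 6 genes are lower in both 16.8 mM libraries and had the mean for the test.

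Relative to all reads of a library, most of these carriers were lower at 16.8 mM glucose. RPKM does not give the amount of RNA in an islet. Of the 10 genes, 7 reached the minimum mean of 1 RPKM and were tested. Of these, 6 fell at 16.8 mM (*Slc3a2*, *Slc7a5*, *Slc1a4*, *Slc7a1*, *Slc7a2* and *Slc7a8*), none rose, and *Slc38a2* did not pass the test. Over all transcripts tested, 33.4% were called, 22.8% lower and 10.7% higher, by the same rule (limma, adjusted p under 0.05). Among them *Slc7a1* and *Slc1a4* reached the minimum only through the 2.8 mM libraries, where they were high. With at least 1 RPKM asked of every library, 5 of the 10 were tested and 4 fell. By that rule 2733 of 6909 transcripts were called, 1865 lower and 868 higher. Without a minimum 4 of all 10 passed, all lower, where 9.13% of 28047 transcripts were called, 6.17% lower and 2.96% higher. *Slc7a11*, *Slc1a5* and *Slc38a1* lay under the minimum and are given by their values. On reads reconstructed from RPKM, span and depth, all 10 could be fitted (limma's voom method). By that fit 6 fell and 1, *Slc7a11*, rose, where 41.9% of 14468 genes were called, 28.8% lower and 13.2% higher. The median log2 fold change of all 10 in that fit was -0.41, against -0.13 over all genes.

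*Slc3a2*, the heavy chain, had the highest level and the largest fall. Its deposited values were 66.2 and 62.8 RPKM at 2.8 mM and 22.6 and 20.7 RPKM at 16.8 mM, or 26928 and 22718 reads against 9542 and 7345 reads. Both 16.8 mM libraries lay far under both 2.8 mM libraries. The mean fell by 66.4%, from 64.5 ± 2.40 to 21.7 ± 1.31 RPKM (SD, n = 2 each), which on the log2 scale was -1.55 ± 0.13 (SE, adjusted p = 4.6e-04 from limma). The gene lies on the minus strand of chromosome 19, and the entry used covers 8781372 to 8788387 (NCBI build 37, 9 exons in the GENCODE annotation). A second deposited entry of the gene, with a span of 16.5 kb, had 28.5 and 27.0 RPKM at 2.8 mM and 9.85 and 9.06 RPKM at 16.8 mM, a log2 fold change of -1.50. Both spans were assigned here, as the GENCODE pair whose ratio (2.35) was nearest the ratio of the mean RPKM of the entries (2.32). With these spans, between 1.02% and 2.55% of the reads of the longer entry, or 192 to 281 reads in a library, lay outside the shorter one. That small share follows from how the spans were picked, so it cannot show that length accounts for the lower RPKM.

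Among the 10 genes, the light chains that pair with this heavy chain moved in both directions. *Slc7a5* (chromosome 8, 124405052 to 124431594, minus strand, 10 exons) stood at 7.34 and 6.95 RPKM at 2.8 mM and at 3.71 and 3.95 RPKM at 16.8 mM. The groups were well apart, and the mean fell by 46.3%, from 7.14 ± 0.278 to 3.83 ± 0.169 RPKM (SD, n = 2 each, log2 fold change -0.82, standard error 0.10, adjusted p = 0.0017 from limma). *Slc7a8* (chromosome 14, 55341053 to 55400723, minus strand, 11 exons) had the smallest log2 fold change among the 6 genes that fell, from 2.22 and 2.10 RPKM to 1.72 and 1.63 RPKM. The mean fell by 22.3% (-0.29 ± 0.08 on the log2 scale, SE, adjusted p = 0.036 from limma). The *Slc7a8* call was lost with each of the 4 libraries left out in turn, with adjusted p-values between 0.054 and 0.22, and without the minimum RPKM (adjusted p = 0.064), although every estimate stayed negative.

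*Slc7a11* (chromosome 3, 50168858 to 50247535, minus strand, 12 exons), the cystine carrier, went the other way. It had 0.382 and 0.339 RPKM at 2.8 mM and 0.550 and 0.541 RPKM at 16.8 mM. These low figures are spread over a span of 78.7 kb and rest on 1743 and 1375 reads against 2602 and 2147 reads. Both 16.8 mM libraries lay above both 2.8 mM libraries, and the ratio of the means was 1.51. In the fit to reconstructed reads it rose, by 0.60 ± 0.10 on the log2 scale (SE, adjusted p = 1.9e-04 from limma voom). On log2(RPKM + 0.5) without a minimum the log2 fold change was 0.28 (adjusted p = 0.057 from limma), in which the added 0.5 RPKM exceeds the 2.8 mM mean and shrinks the difference. That fit called 9.13% of 28047 transcripts, 6.17% lower and 2.96% higher.

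The carriers of cationic amino acids among the 10 genes, *Slc7a1* and *Slc7a2*, both fell. *Slc7a1* (chromosome 5, 149138986 to 149211480, minus strand, 13 exons) had 1.40 and 1.34 RPKM at 2.8 mM and 0.756 and 0.746 RPKM at 16.8 mM, a fall of 45.3% in the mean. The value of -0.58 ± 0.07 on the log2 scale (SE, adjusted p = 0.0020 from limma) understates this, and on reconstructed reads it was -0.87. *Slc7a2* (chromosome 8, 41947766 to 42007662, plus strand, 12 exons) was the higher of the pair, at 4.63 and 4.26 RPKM against 3.39 and 3.06 RPKM. It fell by 27.4% (log2 fold change -0.41, standard error 0.10, adjusted p = 0.022 from limma). Without replicate 1 at 2.8 mM, without replicate 2 at 16.8 mM or without the minimum RPKM, its adjusted p-value was 0.097, 0.11 and 0.076.

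Of the neutral amino acid exchangers, *Slc1a4* changed and *Slc1a5* stayed low. *Slc1a4* (chromosome 11, 20202183 to 20232716, minus strand, 8 exons) had 1.708 and 1.704 RPKM at 2.8 mM and 0.817 and 0.780 RPKM at 16.8 mM. The mean fell by 53.2%, from 1.71 ± 0.0031 to 0.798 ± 0.026 RPKM (SD, n = 2 each), the second largest fall among the 10 genes by the ratio of the means (log2 fold change -0.76, standard error 0.07, adjusted p = 7.8e-04 from limma, -1.09 on reconstructed reads). *Slc1a5* (chromosome 7, 17366695 to 17383623, plus strand, 12 exons) had 0.391 and 0.355 RPKM at 2.8 mM and 0.402 and 0.376 RPKM at 16.8 mM, from 310 to 409 reads in a library. Its groups overlapped. The log2 fold change on reconstructed reads was 0.06, with a 95% interval from -0.26 to 0.38 (adjusted p = 0.78 from limma voom), so a change of modest size could not be seen at this depth and number of libraries.

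The sodium-coupled pair stood far apart in level. *Slc38a2* (chromosome 15, 96517825 to 96530129, minus strand, 16 exons) had 7.15 and 6.83 RPKM at 2.8 mM and 7.40 and 6.87 RPKM at 16.8 mM, so the groups overlapped. Its log2 fold change was 0.03 with a 95% interval from -0.22 to 0.28 (adjusted p = 0.86 from limma), which leaves out falls of the size seen in *Slc3a2* or *Slc7a5*. *Slc38a1* (chromosome 15, 96401849 to 96473344, minus strand, 16 exons) was close to the floor, at 0.0143 and 0.0188 RPKM against 0.0264 and 0.0226 RPKM, or 59 and 69 reads against 114 and 82 reads. Its log2 fold change on reconstructed reads was 0.60 with a 95% interval from 0.05 to 1.15, and it did not pass (adjusted p = 0.074 from limma voom). Its 3 entries had nearly the same values.

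**Figure D2:**
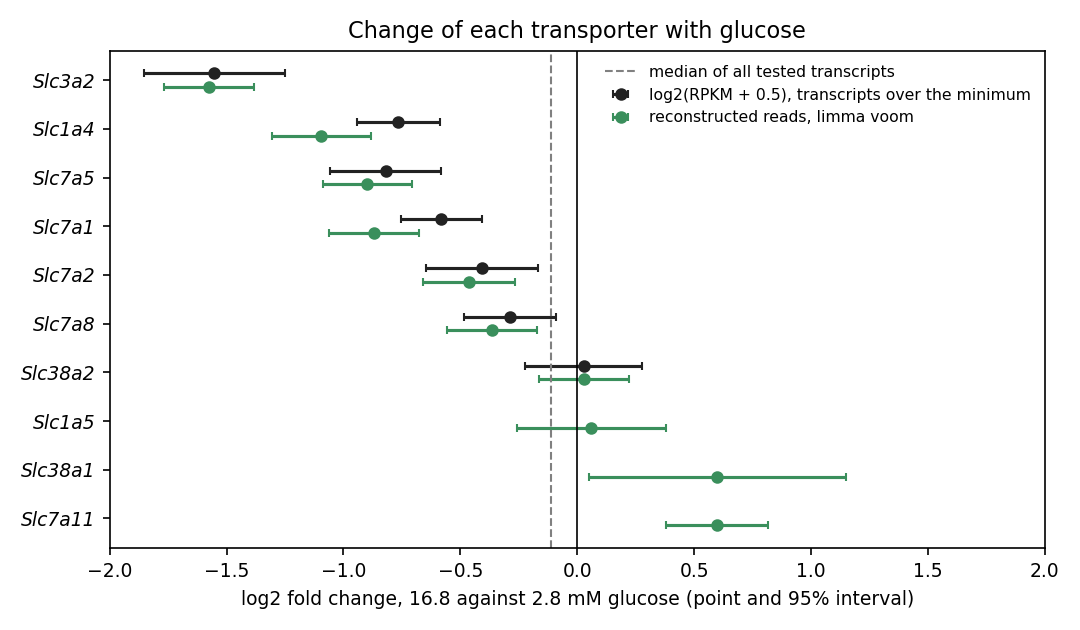
Log2 fold change of each transporter at 16.8 against 2.8 mM glucose with its 95% interval, in black on log2(RPKM + 0.5) for the 7 genes over the minimum and in green on reconstructed reads for all 10. The dashed line is the median of all transcripts tested, -0.11. On reconstructed reads the values run from -1.57 for *Slc3a2* to 0.60 for *Slc7a11* and *Slc38a1*, and the interval of *Slc38a2* spans 0.

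Because the RPKM values run over introns, levels were compared between genes after scaling each to the summed exons of its GENCODE transcript, as if every read lay in an exon. The span was between 2.66 times (*Slc38a2*) and 14.8 times (*Slc7a8*) the exons. On this estimated scale of RPKM over exons, the order at 2.8 mM was *Slc3a2* at 176, *Slc7a5* at 53.9, *Slc7a2* at 33.6, *Slc7a8* at 32.0, *Slc38a2* at 18.6, *Slc7a1* at 13.9, *Slc1a4* at 13.3, *Slc7a11* at 3.07, *Slc1a5* at 2.29 and *Slc38a1* at 0.163. The libraries of *Slc7a2* and *Slc7a8* overlapped on this scale, with 35.1 and 32.2 for the former and 32.9 and 31.0 for the latter. *Slc38a2*, the third over the span at 2.8 mM by mean RPKM, stood in the fifth place per exon. At 16.8 mM, *Slc3a2* stood at 59.1 and *Slc7a5* at 28.9, with *Slc7a8* at 24.8 and *Slc7a2* at 24.4 behind them and *Slc38a2* at 19.0.

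Ratios between partners within a library do not depend on how libraries were scaled. The ratio of *Slc7a5* to *Slc3a2*, in RPKM over the span, was 0.1109 and 0.1107 at 2.8 mM and 0.164 and 0.191 at 16.8 mM. That of *Slc7a8* to *Slc3a2* went from 0.0336 and 0.0334 to 0.0762 and 0.0787, and that of *Slc7a11* to *Slc3a2* from 0.00577 and 0.00540 to 0.0243 and 0.0261. Relative to its heavy chain, each of these light chains was thus higher in both 16.8 mM libraries, although *Slc7a5* and *Slc7a8* themselves fell. Such a rise says little of the light chains, since *Slc3a2* fell so far. Of the 7867 transcripts tested, only 29, its own included, had a log2 fold change as low as that of *Slc3a2* or lower. Nearly any gene would rise relative to it. Among paralogs, *Slc7a5* to *Slc7a8* went from 3.305 and 3.311 to 2.16 and 2.42, *Slc7a1* to *Slc7a2* from 0.302 and 0.316 to 0.223 and 0.244, and *Slc1a4* to *Slc1a5* from 4.37 and 4.80 to 2.03 and 2.08. *Slc38a1* to *Slc38a2* was 0.00200 and 0.00275 at 2.8 mM and 0.00357 and 0.00329 at 16.8 mM. The groups overlapped in none of the 7 ratios. With 2 libraries against 2, the smallest p-value is 0.333, which all 7 gave (exact permutation test, two-sided), so this test could not pass a threshold for any of them. As a guide, 70.4% of all transcripts tested had no overlap between the groups in their own levels, 48.3% lower and 22.2% higher at 16.8 mM.

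**Figure D3:**
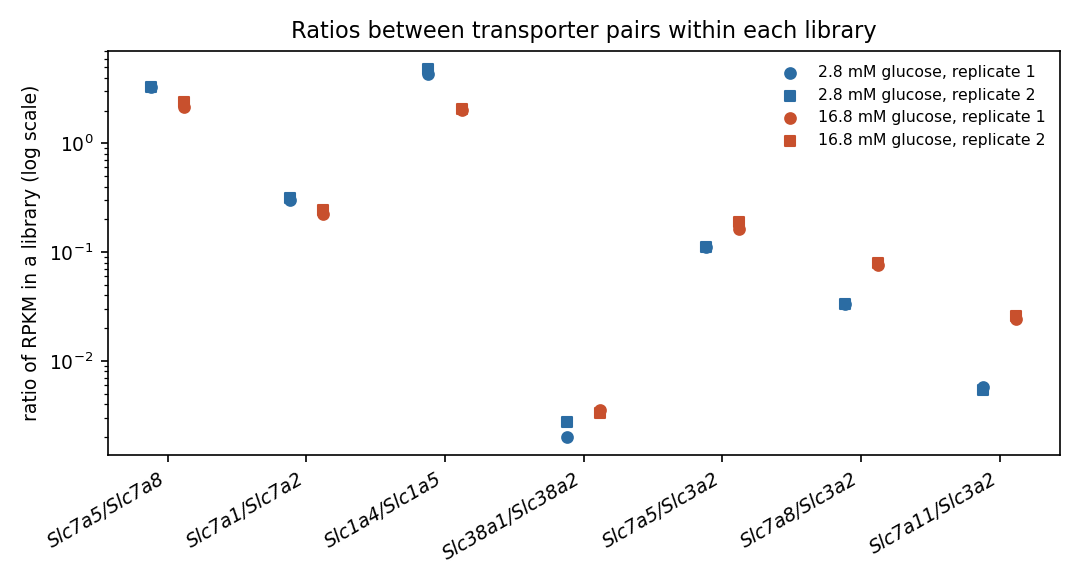
Ratio of the RPKM of 2 transporters within each library, on a log axis, in blue at 2.8 mM and in red at 16.8 mM glucose, with circles and squares for replicates 1 and 2. The 3 ratios of a light chain to *Slc3a2* lie higher at 16.8 mM, and the ratios of *Slc7a5* to *Slc7a8*, *Slc7a1* to *Slc7a2* and *Slc1a4* to *Slc1a5* lie lower.

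The promoters of these genes were searched for short elements tied to amino acid and oxidative stress. The windows run from 250 bases before to 50 bases after a gene's start in RefSeq (GRCm38.p6), and 6 of the 10 genes matched with 7 windows. No window was found for *Slc7a5*, *Slc7a2*, *Slc1a5* and *Slc38a1*. The letters TGATGNAA, the core of the C/EBP-ATF response element to which ATF4 binds with a partner, were searched on both strands and stood in the windows of *Slc7a11* and *Slc1a4*. Of all 32851 windows, 3.97% held them. In *Slc7a11* the matches began 66 and 47 bases before the start, on opposite strands. In *Slc1a4* the match began 4 bases before the start. These windows are shown with that of *Slc3a2*, the gene with the largest fall, with the matches in capitals. The window of *Slc3a2* held no match, and sequence outside the windows was not searched. Whether the element has a part in any change was not tested. The windows lie at chr11:20332664-20332963, chr3:50443564-50443863 and chr19:8713848-8714147, all on the minus strand.
Slc1a4: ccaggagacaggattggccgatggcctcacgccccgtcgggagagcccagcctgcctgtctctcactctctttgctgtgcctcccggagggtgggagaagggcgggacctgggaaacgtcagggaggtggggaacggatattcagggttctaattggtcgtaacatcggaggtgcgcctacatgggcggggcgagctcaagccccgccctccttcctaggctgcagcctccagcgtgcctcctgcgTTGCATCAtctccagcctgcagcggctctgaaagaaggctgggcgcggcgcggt
Slc7a11: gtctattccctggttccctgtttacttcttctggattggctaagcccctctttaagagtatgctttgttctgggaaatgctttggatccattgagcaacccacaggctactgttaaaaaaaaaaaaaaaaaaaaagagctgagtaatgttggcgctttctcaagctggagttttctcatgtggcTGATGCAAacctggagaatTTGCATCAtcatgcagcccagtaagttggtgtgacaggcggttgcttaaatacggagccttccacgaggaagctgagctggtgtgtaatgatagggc
Slc3a2: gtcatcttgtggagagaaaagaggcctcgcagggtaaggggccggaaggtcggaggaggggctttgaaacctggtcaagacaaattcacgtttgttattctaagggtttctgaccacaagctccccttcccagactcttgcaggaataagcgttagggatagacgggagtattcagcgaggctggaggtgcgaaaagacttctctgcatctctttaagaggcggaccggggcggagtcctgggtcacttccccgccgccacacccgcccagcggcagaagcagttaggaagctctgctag

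The core of the antioxidant response element, TGACNNNGC, which NRF2 binds, stood in the windows of *Slc38a2* and *Slc7a1* and in 12.4% of all windows. The E-box CACGTG stood in no window of these genes and in 7.15% of all. Matches describe the letters of these windows and show neither binding nor its absence.

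Other carriers of amino acids were counted by the same rule. Of 39 further plasma membrane transporters, 9 were tested, 2 rose (*Slc6a17* and *Slc38a4*) and 2 fell (*Slc1a1* and *Slc6a6*), with a median log2 fold change of -0.03 against the -0.11 of all transcripts. In the fit to reconstructed reads 27 of them were tested, 9 fell and 3 rose. Over all genes that fit called 41.9%, 28.8% lower and 13.2% higher, which also stands beside its counts below. Of the 9 tested on RPKM, *Slc6a17* alone changed by 0.5 or more. This carrier of neutral amino acids is known from synaptic vesicles rather than the plasma membrane, and it went from 1.12 and 1.03 RPKM at 2.8 mM to 1.80 and 1.90 RPKM at 16.8 mM (log2 fold change 0.58, adjusted p = 0.0029 from limma). Without replicate 2 at 16.8 mM the count in this list was 1, and without replicate 1 at 2.8 mM it was 2. Among 9 listed lysosomal transporters, not all of them carriers of amino acids, 4 were tested and 2 fell, with a median of -0.40. On reconstructed reads all 9 were tested, 5 fell and none rose. *Slc38a7*, which exports glutamine and asparagine from lysosomes, had 2.90 and 2.79 RPKM against 1.18 and 1.03 RPKM (log2 fold change -1.06, adjusted p = 4.6e-04 from limma). *Ctns*, the lysosomal cystine exporter cystinosin, had 2.22 and 2.11 RPKM against 1.24 and 1.22 RPKM (log2 fold change -0.62, adjusted p = 0.0021 from limma). Of 10 mitochondrial carriers, 4 were tested, 1 rose and 1 fell. The latter was *Slc25a44*, a carrier of branched-chain amino acids (log2 fold change -0.33, adjusted p = 0.043 from limma), and *Slc25a29*, which carries basic amino acids, rose from 0.713 and 0.718 RPKM to 1.41 and 1.25 RPKM (log2 fold change 0.59, adjusted p = 0.0026 from limma), reaching the minimum only through the 16.8 mM libraries. On reconstructed reads 9 of these carriers were tested, 1 rose and 3 fell.

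**Figure D4:**
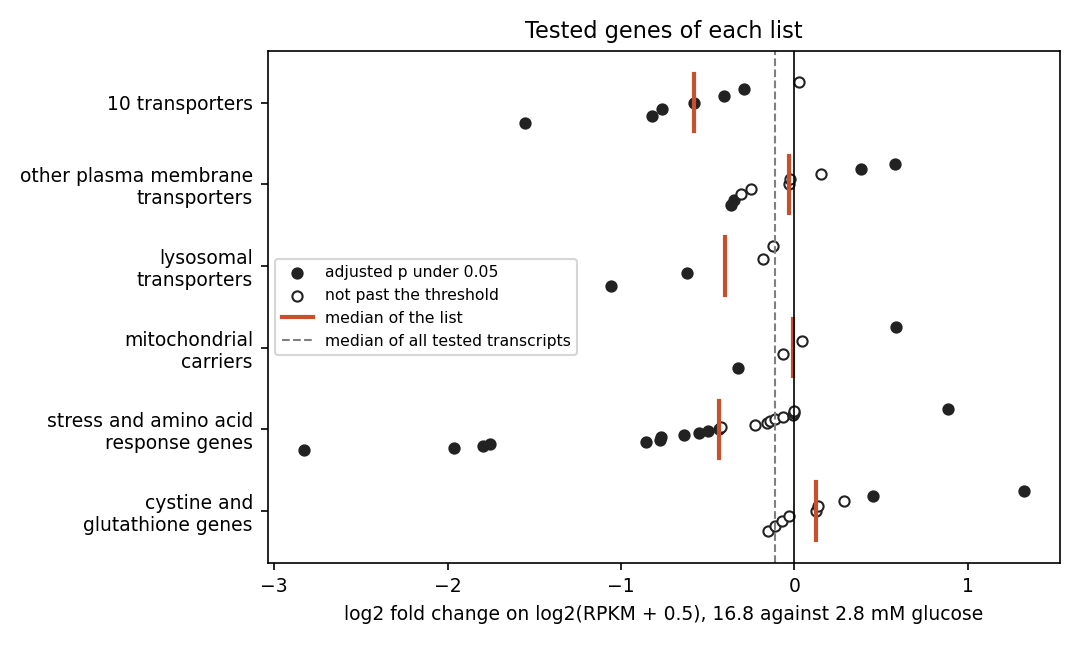
Log2 fold change on log2(RPKM + 0.5) of every tested gene in each list, with filled points for genes past the threshold, a red bar for the list's median and a dashed line for the median of all transcripts tested. Of the 7 tested genes among the 10 transporters, 6 lie past the threshold to the left, and the 9 other plasma membrane transporters lie on both sides of 0.

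Genes of the integrated stress and amino acid response were set beside the transporters. Of 23 such genes 21 were tested, 11 fell, 1 rose and 9 did not pass, with a median log2 fold change of -0.43. The falls ran from -0.43 to -2.83 on the log2 scale, and the gene that rose was *Ddit4*, an inhibitor of mTORC1 signalling (0.89). The last fall was that of *Ddit3* (CHOP), a transcription factor of the stress response, with 71.4 and 65.4 RPKM against 10.1 and 8.34 RPKM (adjusted p = 6.2e-05 from limma). *Atf4* itself had 137 and 130 RPKM at 2.8 mM and 79.6 and 75.4 RPKM at 16.8 mM (log2 fold change -0.78, adjusted p = 0.0054 from limma). *Asns*, asparagine synthetase and a known ATF4 target, was among the 9 that did not pass. It had 9.09 and 8.65 RPKM against 7.83 and 8.18 RPKM (log2 fold change -0.14, adjusted p = 0.34 from limma). On reconstructed reads all 23 stress and amino acid response genes were tested, 14 fell and 1 rose, where 28.8% of all genes were called lower and 13.2% higher. Of 12 genes of cystine and glutathione metabolism 9 were tested, 2 rose and none fell. These were *Cbs*, which joins serine to homocysteine on the way to cysteine (log2 fold change 1.32, adjusted p = 2.2e-04 from limma), and *Srxn1*, sulfiredoxin (0.45, adjusted p = 0.042 from limma). *Cbs*, at 0.600 and 0.673 RPKM against 2.19 and 2.50 RPKM, reached the minimum only through the 16.8 mM libraries. On reconstructed reads all 12 were tested, 4 rose and 1 fell. The latter was *Gss*, glutathione synthetase, under the minimum at 0.867 and 0.870 RPKM against 0.483 and 0.466 RPKM (log2 fold change -0.87, adjusted p = 9.9e-06 from limma voom).

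The transcripts whose centred log2 values over the 4 libraries were nearest to those of *Slc3a2* were *Zdhhc2*, *Hspa5*, *Derl3*, *Dcaf12l1* and *Calr*, at Euclidean distances from 0.08 to 0.14. Their log2 fold changes lay between -1.63 and -1.42. With 4 libraries in 2 groups, such likeness is mostly likeness of the fold change.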

How the data were processed

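RNA of whole mouse islets was measured in 4 libraries. The authors deposited 1 table of RPKM values with 33923 entries for RefSeq transcripts and lncRNAs, some transcripts more than once. The submitters' processing notes name STAR, bedtools, DESeq and mm9 (NCBI build 37). How the islet libraries were counted is not given in the sources used here, nor whether strand was used. *Slc7a5* and *Slc7a2* overlap annotated genes on the other strand that have no value here.

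Entries with equal symbol and equal values counted as 1, which left 28047 transcripts. Where the mean reached 1 RPKM, log2(RPKM + 0.5) was tested with limma 3.58.1 in R 4.3.3 (variances moderated along a trend, Benjamini-Hochberg threshold 0.05). The added 0.5 RPKM understates changes of low genes. Depth was recovered from low genes with 1 GENCODE vM1 transcript, and reads are RPKM times span and depth, estimates of the authors' counts. The voom fit used genes with a mean of at least 20 such reads, rounded. Coordinates come from GENCODE vM1 (NCBI build 37). Python 3.11.15, pandas 2.3.3, numpy 2.4.6, scipy 1.17.1 and matplotlib 3.10.9 were used.

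The members, lists and tests were chosen with earlier results of these data known. Beside the 10 genes, the text names genes of the other transporter lists past the threshold with an absolute log2 fold change of at least 0.5, the 5 transcripts nearest to *Slc3a2*, and up to 3 genes of other lists where a result is set beside them. Outside this rule or within its last part, *Atf4*, *Asns*, *Ddit3*, *Ddit4*, *Cbs*, *Srxn1*, *Gss*, *Slc38a4*, *Slc1a1*, *Slc6a6* and *Slc25a44* were picked after their values were seen. So was *Ins2*. Lists were also fixed for delta and PP, ductal, endothelial, macrophage and leukocyte, and stromal cells. Of their tested markers 1 ductal marker rose (*Spp1*) and 1 fell (*Krt7*), and none of the others passed (limma). Only 1 of 8 endothelial and 1 of 8 stromal markers were tested. In the voom fit 4 of 8 endothelial, 2 of 5 delta and PP and 1 of 9 macrophage and leukocyte markers rose. Of 6 ductal markers 2 rose and 1 fell, and none of 8 stromal markers passed. That fit called 41.9% of all genes, 28.8% lower and 13.2% higher. Alternatives were quantile normalization, centring each library on its median, 0.1 or 1 RPKM added, no minimum, at least 1 RPKM in every library, no trend, the replicate number as a block, voom, and each library left out in turn. The ratio of mean RPKM and the left-out libraries for the ratios were chosen after the data were seen.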

Additional observations from a re-analysis of the deposited data

How the results depend on the processing

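The number of the 10 transporters past the threshold was 6, between 4 and 5 with a library left out, 4 of 10 without a minimum, 4 of 5 with at least 1 RPKM in every library and 7 of 10 with voom. Across all transcripts 2628 passed, between 1825 and 2579 with a library left out, 4067 with the replicate number as a block and 6064 of 14468 with voom on reconstructed reads. Of the other plasma membrane transporters 4 passed, 7 of 39 without a minimum, 12 of 27 with voom and between 1 and 4 with a library left out. The share of calls that were higher at 16.8 mM was 31.9%, 42.3% after quantile normalization and 44.1% after centring on the median, and the 6 transporters that fell passed under both scalings. *Slc38a2* (0.03) lay between -0.023 and 0.077 with a library left out and changed sign to -0.0038 without replicate 2 at 2.8 mM and at its lowest value without replicate 1 at 16.8 mM, with adjusted p-values of 0.99 and 0.93. Of 108 values of single transporters under the alternatives, 8 lost the call, 1 gained it and 2 changed sign. At least 1 RPKM in every library left *Slc7a1* and *Slc1a4* untested. The replicate numbers were not shown to pair the libraries: the differences between replicates 1 and 2 at both concentrations had a correlation of 0.31 across 7867 transcripts, from 2 pairs. With the replicate block the 6 transporters passed as without it, with adjusted p-values from 0.0096 to 0.0173. Low read numbers limit *Slc38a1* and *Slc1a5*.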

Other observations

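Below the minimum mean, *Slc3a1* rose on reconstructed reads and *Slc6a9* had the lowest adjusted p-value among several other plasma membrane carriers that fell (limma voom). Both were named after their values were seen, and that fit called 41.9% of all genes. *Slc3a1*, the other heavy chain of the family, which pairs with the cystine and basic amino acid carrier of kidney and gut, had 0.660 and 0.605 RPKM at 2.8 mM and 1.04 and 1.16 RPKM at 16.8 mM (log2 fold change 0.80, adjusted p = 1.6e-05). *Slc6a9*, a plasma membrane glycine transporter, had 0.710 and 0.698 RPKM against 0.251 and 0.256 RPKM (log2 fold change -1.47, adjusted p = 3.2e-08).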
